A study of Arabidopsis thaliana with 36 samples.

Results

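The genes described here are the Arabidopsis carriers that bring ammonium and urea into the cell, together with the enzyme that turns urea into ammonium. They were taken by locus code from the deposited tables and number 8 of the 34218 features listed: AMT1;1 (AT4G13510), AMT1;2 (AT1G64780), AMT1;3 (AT3G24300), AMT1;4 (AT4G28700), AMT1;5 (AT3G24290), AMT2;1 (AT2G38290), the urea carrier DUR3 (AT5G45380) and urease, URE (AT1G67550). RNA of roots and of rosettes, which the labels call shoots, was counted per gene in 36 libraries, with 3 replicates for each of 6 genotypes in each tissue. The genotypes were the mutant nlp2-3 nlp7-1, which carries 2 mutated genes, the mutants nlp7-1, nlp2-3 and nlp2-2, and both Col-0 and Col-4 as wild types. All plants were 42 days old and had grown in sand culture on 5 mM nitrate, called non-limiting in the labels, under days of 8 h light and 16 h dark. The labels also give 3 days of stratification for every sample. The nlp2-3 nlp7-1, nlp7-1 and nlp2-3 plants were compared with Col-0, and nlp2-2 with Col-4. Neither the type of the mutations nor the parent line of each mutant is stated in the labels. The ecotype label reads Col-0 for every sample. Col-4 as the wild type of nlp2-2 is thus an assumption, and Col-0 was used in its place as an alternative.

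Ammonium enters plant cells through AMT proteins of the plasma membrane, and urea enters through DUR3, a symporter that moves urea with protons at low external concentrations. In the cytosol urease, a nickel enzyme, splits urea into ammonium and carbon dioxide, and glutamine synthetase fixes the ammonium. The mutated genes, NLP2 and NLP7, encode NIN-like transcription factors of the nitrate response, and plants short of nitrogen are known to make more of several of these carriers.

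The 18 libraries of roots had total counts of 18385020 to 28538665, and the 18 of shoots had 18150510 to 31657474. NLP7 fell in both genotypes that carry nlp7-1, with log2 fold changes of -1.32 and -1.55 in nlp2-3 nlp7-1 and nlp7-1 roots and of -1.04 and -1.19 in their shoots. NLP2 fell in every genotype that carries an nlp2 allele in both tissues, least in nlp2-3 nlp7-1 roots (-0.41 against Col-0), so that transcript remained in each mutant. In nlp7-1 roots NLP2 was higher than in Col-0 (0.51, adjusted p = 0.00654 with edgeR). In shoots NLP2 was lower in Col-4 than in Col-0 (-0.37, adjusted p = 0.0032 with edgeR). The summed level of 4 leaf markers was 28971 to 36141 CPM (counts scaled to a common library size of 1e+06) in shoots and 6.18 to 22.4 CPM in roots, and the summed level of 4 root hair markers was at most 0.14 CPM in shoots and 52.4 to 97.0 CPM in roots, so each tissue carried the markers of its label. In bulk RNA, a change in the number of cells of a type and a change in RNA per cell cannot be told apart.

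The carriers were divided between the tissues. Levels between genes are given in FPKM, the authors' value per transcript length and library size, as mean ± SD of 3 libraries. AMT1;1 has no place in the orders that follow, since it could not be read from these tables. In Col-0 shoots AMT1;2, in other work a carrier of the root endodermis and cortex, stood first of the other members at 55.1 ± 6.8 FPKM. AMT2;1, a carrier distant in sequence from the AMT1 group, followed at 10.6 ± 2.0 FPKM, DUR3 at 9.22 ± 2.4 FPKM and URE at 8.42 ± 0.65 FPKM. These 3 genes overlapped with their neighbours in that order. In Col-0 roots AMT1;3, known as a carrier of the root surface, was the most abundant of the members that could be read, at 118 ± 16 FPKM. It was followed by AMT1;2 at 48.6 ± 5.3 FPKM, AMT2;1 at 22.2 ± 1.4 FPKM, URE at 19.6 ± 1.0 FPKM and DUR3 at 7.61 ± 0.11 FPKM, with no overlap between neighbours. AMT1;3 was all but restricted to roots, with 1 to 3 counts in a Col-0 shoot library against 3569 to 5695 in a Col-0 root library.

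**Figure D1:**
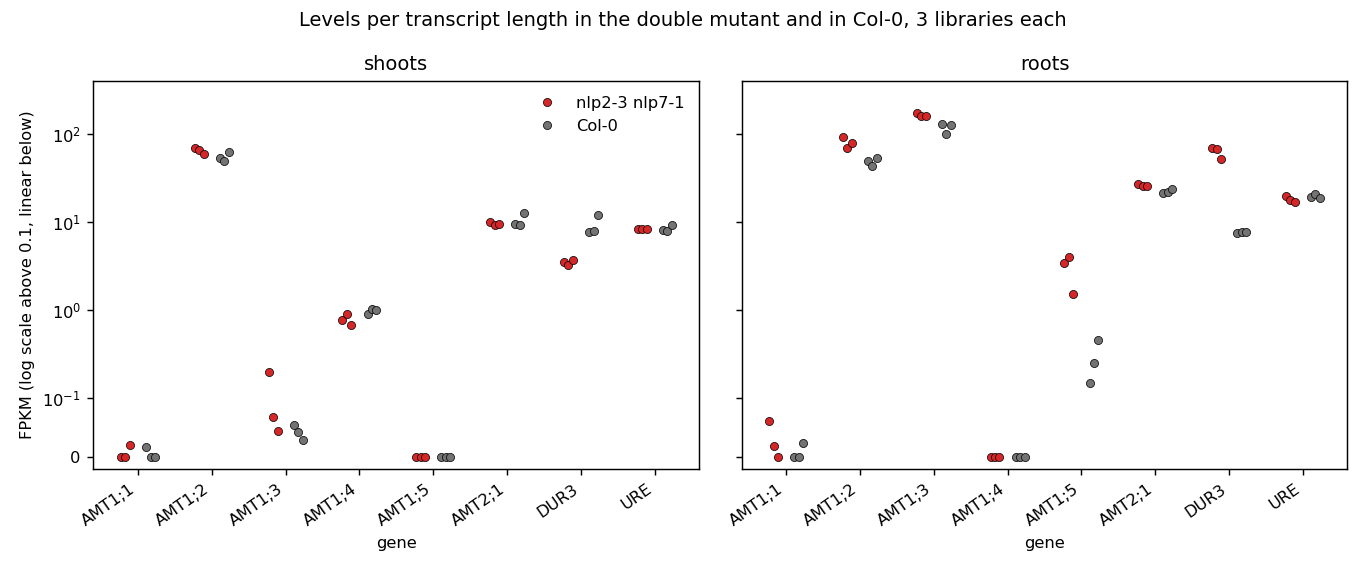
FPKM of the 8 genes in shoots (left) and roots (right), with 1 dot per library for nlp2-3 nlp7-1 (red) and Col-0 (grey) and a vertical axis that is logarithmic above 0.1 FPKM and linear below. AMT1;3 and AMT1;5 carry signal in roots and AMT1;4 in shoots, AMT1;1 lies near 0 in both, and DUR3 of nlp2-3 nlp7-1 lies above Col-0 in roots and below it in shoots.

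Tested across tissues in a fit of all 36 libraries with edgeR, 7 of 7 members tested were called at an adjusted p under 0.05 between Col-0 shoots and Col-0 roots. That was also the state of 78.4% of the 21554 genes tested, so the count says little about these genes. AMT1;3 was lower in shoots by -10.62 ± 0.30 on the log2 scale (± SE, adjusted p = 2.42e-23). AMT2;1 was lower in shoots by -0.37 ± 0.08 (adjusted p = 7.73e-05) and URE by -0.50 ± 0.07 (adjusted p = 1.11e-07). DUR3 was higher in Col-0 shoots by 0.98 ± 0.14 (adjusted p = 1.22e-07) and AMT1;2 by 0.90 ± 0.15 (adjusted p = 3.28e-06). The scale matters here: the trimmed-mean (TMM) scaling of edgeR put the median of all genes at -0.08 and plain library totals put it at -0.79, a shift over which DUR3 moved to 0.28 and AMT1;2 to 0.18. Relative to that median DUR3 stood at 1.07 and 1.06 and AMT1;2 at 0.98 and 0.97, but on the FPKM scale limma called neither gene (DUR3 0.22 and adjusted p = 0.0844, AMT1;2 0.18 and adjusted p = 0.224, with a pseudocount of 1). With plain library totals AMT2;1 moved to -1.07 and URE to -1.22. Relative to the median of all genes AMT2;1 stood at -0.27 with TMM and -0.29 with plain totals, and URE at -0.42 and -0.43.

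A pair of AMT1 genes lay almost wholly in 1 tissue. AMT1;4, known from pollen, had 32 to 45 counts in the Col-0 shoot libraries and 0 in all 3 Col-0 root libraries. Over all 18 root libraries it had 5 counts, of which 4 were in nlp2-3 replicate 1 and 1 was in Col-4 replicate 3. Set against 3 counts per group for the roots, it was at least 57.2-fold higher in Col-0 shoots. Its counts in shoots came with none from the pollen markers VGD1 and AT5G45880, which were at 0 in all 18 shoot libraries. AMT1;5 was the reverse, at 0 in all 18 shoot libraries, with 5 to 14 counts in the Col-0 root libraries. By the same floor it was at least 6.11-fold lower in Col-0 shoots than in Col-0 roots, and in nlp2-3 nlp7-1 the roots exceeded the shoots by at least 63.5-fold. Fewer than 3 counts in a library are not detectable at this depth, which corresponds to at most 0.165 CPM. The folds above use the less strict floor of 3 counts over the 3 libraries of a group. With 3 counts in each library they would be smaller.

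AMT1;1 could not be read from these tables. This gene, described as a main ammonium carrier of roots, had 0 to 3 counts in every root library and 0 or 1 in every shoot library, 16 and 2 in all. In the RefSeq annotation of TAIR10.1 the antisense lncRNA gene AT4G13505 lies on the opposite strand across 81.1% of AMT1;1, and AT4G13505 itself is at 0 in all 36 libraries. No other member overlaps another gene there. Whether the authors' counting left these fragments out was not tested, and nothing about the expression of AMT1;1 is read from its counts.

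In roots the urea carrier rose in every mutant. DUR3 had 187, 185 and 140 CPM in nlp2-3 nlp7-1 roots, 92.3, 86.4 and 88.0 CPM in nlp7-1 roots and 89.8, 79.7 and 90.6 CPM in nlp2-3 roots, against 21.1, 21.1 and 21.3 CPM in Col-0 roots. It had 92.0, 102 and 84.7 CPM in nlp2-2 roots, against 21.8, 21.2 and 17.2 CPM in Col-4 roots. Every mutant library lay above every wild-type library, and the nlp2-3 nlp7-1 libraries lay above all others. With edgeR's quasi-likelihood test and Benjamini-Hochberg adjustment over all genes tested, the log2 fold change was 3.01 ± 0.11 in nlp2-3 nlp7-1 (8.05-fold, adjusted p = 5.01e-12), 2.07 ± 0.11 in nlp7-1 (4.20-fold, adjusted p = 6.06e-10), 2.03 ± 0.11 in nlp2-3 (4.10-fold, adjusted p = 1.99e-09) and 2.21 ± 0.11 in nlp2-2 (4.63-fold, adjusted p = 4.83e-10). In FPKM the gene was the fifth of the 6 tested in Col-0 and Col-4 roots and was the third in the roots of all 4 mutants, at 62.9 ± 9.5 FPKM in nlp2-3 nlp7-1 roots, above AMT2;1 and URE.

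**Figure D2:**
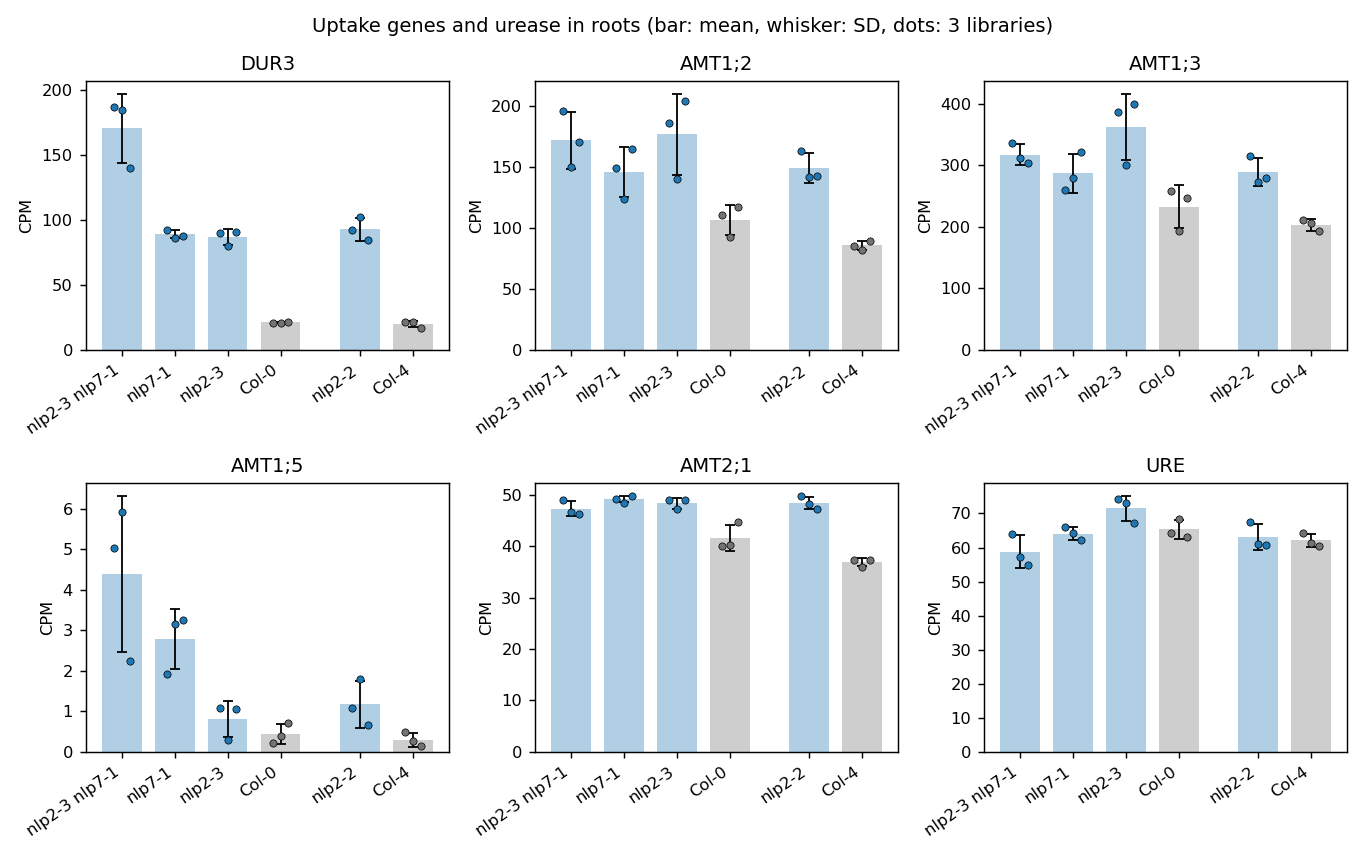
CPM in roots of the 6 members that passed the filter on low counts, with bars for the mean, whiskers for the SD and dots for the 3 libraries of each genotype, mutants in blue and wild types in grey, and nlp2-2 set apart beside its comparison group Col-4. DUR3 separates every mutant library (79.7 CPM and above) from every wild-type library (21.8 CPM and below), while URE of every mutant overlaps with its wild type.

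The ammonium carriers AMT1;2 and AMT1;3 also stood higher in mutant roots, by smaller amounts. AMT1;2 had 196, 150 and 170 CPM in nlp2-3 nlp7-1 roots, 149, 124 and 165 CPM in nlp7-1 roots and 186, 140 and 204 CPM in nlp2-3 roots, against 111, 92.8 and 117 CPM in Col-0 roots. It had 164, 142 and 142 CPM in nlp2-2 roots, against 85.6, 82.3 and 89.4 CPM in Col-4 roots. No mutant group overlapped with its wild type, although the lowest nlp7-1 library was close to the highest Col-0 library. AMT1;2 was called in nlp2-3 nlp7-1 (0.69 ± 0.14, adjusted p = 0.00133), nlp2-3 (0.73 ± 0.14, adjusted p = 0.00309) and nlp2-2 (0.80 ± 0.14, adjusted p = 0.00159). In nlp7-1 the value was 0.45 ± 0.14 with an adjusted p of 0.0546, and 6 of 13 other settings called it, over which the adjusted p ran from 0.00181 to 0.237. The lowest came with the replicate number as a block, in a comparison whose replicate numbers did not pair the libraries.

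AMT1;3 had 336, 311 and 304 CPM in nlp2-3 nlp7-1 roots, 259, 280 and 321 CPM in nlp7-1 roots and 387, 301 and 400 CPM in nlp2-3 roots, against 259, 193 and 247 CPM in Col-0 roots. In nlp2-2 roots it had 316, 272 and 280 CPM, against 211, 207 and 193 CPM in Col-4 roots. The lowest nlp7-1 library lay just above the highest Col-0 library, and the other 3 mutants lay clear of their wild type. AMT1;3 was called in nlp2-3 nlp7-1 (0.44 ± 0.11, adjusted p = 0.0073), nlp2-3 (0.64 ± 0.11, adjusted p = 0.00156) and nlp2-2 (0.51 ± 0.11, adjusted p = 0.00851), and not in nlp7-1 (0.30 ± 0.11, adjusted p = 0.122). The nlp2-2 call ended without Col-4 replicate 3 (adjusted p = 0.0515), without nlp2-2 replicate 1 (0.0536) and against Col-0 (0.105), with adjusted p from 0.000338 to 0.105 over its alternatives.

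AMT1;5, known in other work as a root surface carrier of nitrogen-starved plants, is the neighbour of AMT1;3 on the same strand and had few fragments. It had 119, 149 and 49 counts in nlp2-3 nlp7-1 roots, 40, 68 and 66 counts in nlp7-1 roots and 22, 6 and 30 counts in nlp2-3 roots, against 5, 7 and 14 counts in Col-0 roots. In nlp2-2 roots it had 22, 39 and 12 counts, against 10, 6 and 3 counts in Col-4 roots. The nlp2-3 nlp7-1 and nlp7-1 libraries exceeded all Col-0 libraries, and nlp2-3 overlapped with Col-0. AMT1;5 rose by 3.34 ± 0.51 in nlp2-3 nlp7-1 (adjusted p = 8.02e-05) and by 2.67 ± 0.53 in nlp7-1 (adjusted p = 0.00304). In nlp2-3 the value was 0.93 ± 0.59 (adjusted p = 0.426) and in nlp2-2 it was 2.00 ± 0.60 (adjusted p = 0.0517, and from 0.00834 to 0.255 over its alternatives). AMT1;3 and AMT1;5 are close copies, and how fragments that match both were counted is not given in the sources used here, so the values of the rarer gene are uncertain. Per 1000 counts of AMT1;3 there were 7.36 to 19.1 counts of AMT1;5 in nlp2-3 nlp7-1 and 7.43 to 11.3 in nlp7-1, against 0.878 to 2.83 in Col-0.

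AMT2;1, which in other work acts in moving ammonium from root to shoot, rose by the least. It had 49.0, 46.8 and 46.3 CPM in nlp2-3 nlp7-1 roots, 49.3, 48.5 and 49.9 CPM in nlp7-1 roots and 49.1, 47.2 and 49.0 CPM in nlp2-3 roots, against 40.1, 40.3 and 44.7 CPM in Col-0 roots. In nlp2-2 roots it had 49.7, 48.2 and 47.3 CPM, against 37.4, 36 and 37.4 CPM in Col-4 roots. All mutant libraries lay above all wild-type libraries within a narrow range. The changes were 0.18 ± 0.06 in nlp2-3 nlp7-1 (adjusted p = 0.0209), 0.24 ± 0.06 in nlp7-1 (adjusted p = 0.0108), 0.22 ± 0.06 in nlp2-3 (adjusted p = 0.0235) and 0.39 ± 0.06 in nlp2-2 (adjusted p = 0.000195). The first 3, which share the Col-0 libraries, were lost in fits of each mutant with Col-0 alone (adjusted p = 0.124, 0.0774 and 0.149) and without Col-0 root replicate 2 (0.0751, 0.0511 and 0.0889). The nlp2-3 nlp7-1 call was also lost without Col-0 root replicate 1 (0.0877) or nlp2-3 nlp7-1 replicate 1 (0.103), and the nlp2-3 call without Col-0 root replicate 1 (0.0908) or nlp2-3 replicate 1 (0.0833) or 3 (0.0843). Over all alternatives of these 3 the adjusted p ran from 0.00294 to 0.149.

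Urease did not follow the carriers. URE had 64.1, 57.2 and 54.9 CPM in nlp2-3 nlp7-1 roots, against 64.4, 68.5 and 63.2 CPM in Col-0 roots, and its change there was -0.15 ± 0.07 (95% confidence interval -0.30 to -0.01, adjusted p = 0.0987, and from 0.0218 to 0.296 over its alternatives). In the other 3 mutants the values were between -0.03 and 0.13, with adjusted p of 0.291 and above.

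Of the 6 members that passed the filter on low counts in roots, 5 were called in nlp2-3 nlp7-1, 3 in nlp7-1, 4 in nlp2-3 and 4 in nlp2-2, all of them higher. AMT1;1 and AMT1;4 did not pass it. AMT1;5 passed it through mutant libraries, where it was high, since Col-0 roots had 5 to 14 counts and Col-4 roots 3 to 10. Its calls in nlp2-3 nlp7-1 and nlp7-1 are among those counted, so these counts and the medians below are not independent of the filter. Among all 20486 genes tested, 25.2% were called in nlp2-3 nlp7-1 (12.9% as higher), 7.94% in nlp7-1 (4.5% as higher), 6.84% in nlp2-3 (3.36% as higher) and 7.12% in nlp2-2 (3.2% as higher). The median log2 fold change of the members tested was 0.57, 0.38, 0.68 and 0.65 in that order, against medians of all genes between -0.01 and 0.00. The comparisons of nlp2-3 nlp7-1, nlp7-1 and nlp2-3 share their 3 Col-0 libraries and are not independent. Markers of root cell types moved as well. The summed level of the 4 root hair markers was 73.5 to 97.0 CPM in mutant roots and 52.4 to 70.6 CPM in wild-type roots, with 2 of 4 called higher in nlp2-3 nlp7-1 (COBL9 and RHD6) and 1 in nlp2-2 (COBL9). The 4 endodermis markers summed to 155 to 210 CPM in mutant roots and 110 to 176 CPM in wild-type roots, and of these CASP1 was called higher in nlp2-3 nlp7-1. ESB1 and MYB36 were called in no mutant. ESB1 was at -0.10 in nlp2-3 nlp7-1, -0.06 in nlp7-1, -0.33 in nlp2-3 and 0.11 in nlp2-2. Single markers of these types changed by at most 0.62 on the log2 scale, and their part in the rise of the carriers was not tested.

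The 2 mutations together raised DUR3 beyond either alone. In roots nlp2-3 nlp7-1 exceeded nlp7-1 by 0.94 ± 0.10 (adjusted p = 6.13e-06) and nlp2-3 by 0.97 ± 0.10 (adjusted p = 3.45e-06). The effect of both was smaller on the log2 scale than the sum of the single effects, with an interaction of -1.09 ± 0.15 (adjusted p = 0.0017). On the linear scale the double mutant exceeded Col-0 by 149 CPM, and the differences of 67.7 CPM in nlp7-1 and 65.5 CPM in nlp2-3 sum to 133 CPM, so on that scale the effect of both was not below the sum. Of the 6 members tested, DUR3 was the 1 called against nlp7-1, where 6.51% of all genes were called. Against nlp2-3 3 were called, with a background of 6.47%: DUR3, AMT1;5 (2.41 ± 0.46, adjusted p = 0.00246) and URE, which fell by 0.28 on the log2 scale (SE 0.07, adjusted p = 0.0111). Since AMT1;5 passed the filter through mutant libraries, where it was high, this count is not independent of the filter either. The URE call was lost without nlp2-3 replicate 1 (adjusted p = 0.0511), without nlp2-3 nlp7-1 replicate 3 (0.0562) and with only the groups compared fitted (0.0794), and its adjusted p ran from 0.00132 to 0.0794. DUR3 was also the 1 member called for the interaction, against 0.239% of all genes.

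No member passed the threshold in roots between the wild types or between the alleles. For Col-4 against Col-0, edgeR called 0 of the 6 members, DESeq2 and limma also called 0, and 2 had an unadjusted p under 0.05. These were AMT1;2 (-0.32 ± 0.14) and AMT2;1 (-0.17 ± 0.06), neither of which overlapped between Col-4 and Col-0. Of all 20486 genes 0.0391% were called, and 948 had an unadjusted p under 0.05. For the nlp2-2 effect minus the nlp2-3 effect edgeR, DESeq2 and limma called 0 of the 6, with 1 at an unadjusted p under 0.05. Of all 20486 genes 0.0635% were called there, and 535 had an unadjusted p under 0.05. For DUR3 that difference was 0.18 ± 0.15 (95% confidence interval -0.15 to 0.51), and for AMT1;5 it was 1.08 ± 0.87 (95% confidence interval -0.82 to 2.97).

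In shoots the urea carrier fell in every mutant. DUR3 had 9.50, 8.77 and 10.01 CPM in nlp2-3 nlp7-1 shoots, 13.1, 13.9 and 13.2 CPM in nlp7-1 shoots and 7.95, 8.66 and 8.56 CPM in nlp2-3 shoots, against 21.3, 21.8 and 32.4 CPM in Col-0 shoots. It had 11.0, 13.3 and 14.5 CPM in nlp2-2 shoots, against 17.2, 20.2 and 23.9 CPM in Col-4 shoots. No mutant library reached its wild type, and the third Col-0 library stood above the other two. The log2 fold change was -1.41 ± 0.14 in nlp2-3 nlp7-1 (adjusted p = 1.92e-07), -0.90 ± 0.14 in nlp7-1 (adjusted p = 0.000214), -1.58 ± 0.15 in nlp2-3 (adjusted p = 2.23e-07) and -0.67 ± 0.14 in nlp2-2 (adjusted p = 0.00924). Without Col-0 shoot replicate 3 the first 3 were still called, at -1.19, -0.69 and -1.36. The nlp2-2 call ended without Col-4 shoot replicate 3 (-0.54, adjusted p = 0.0704) and without nlp2-2 shoot replicate 1 (-0.56, adjusted p = 0.0734), with adjusted p from 0.000141 to 0.0734 over its alternatives.

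**Figure D3:**
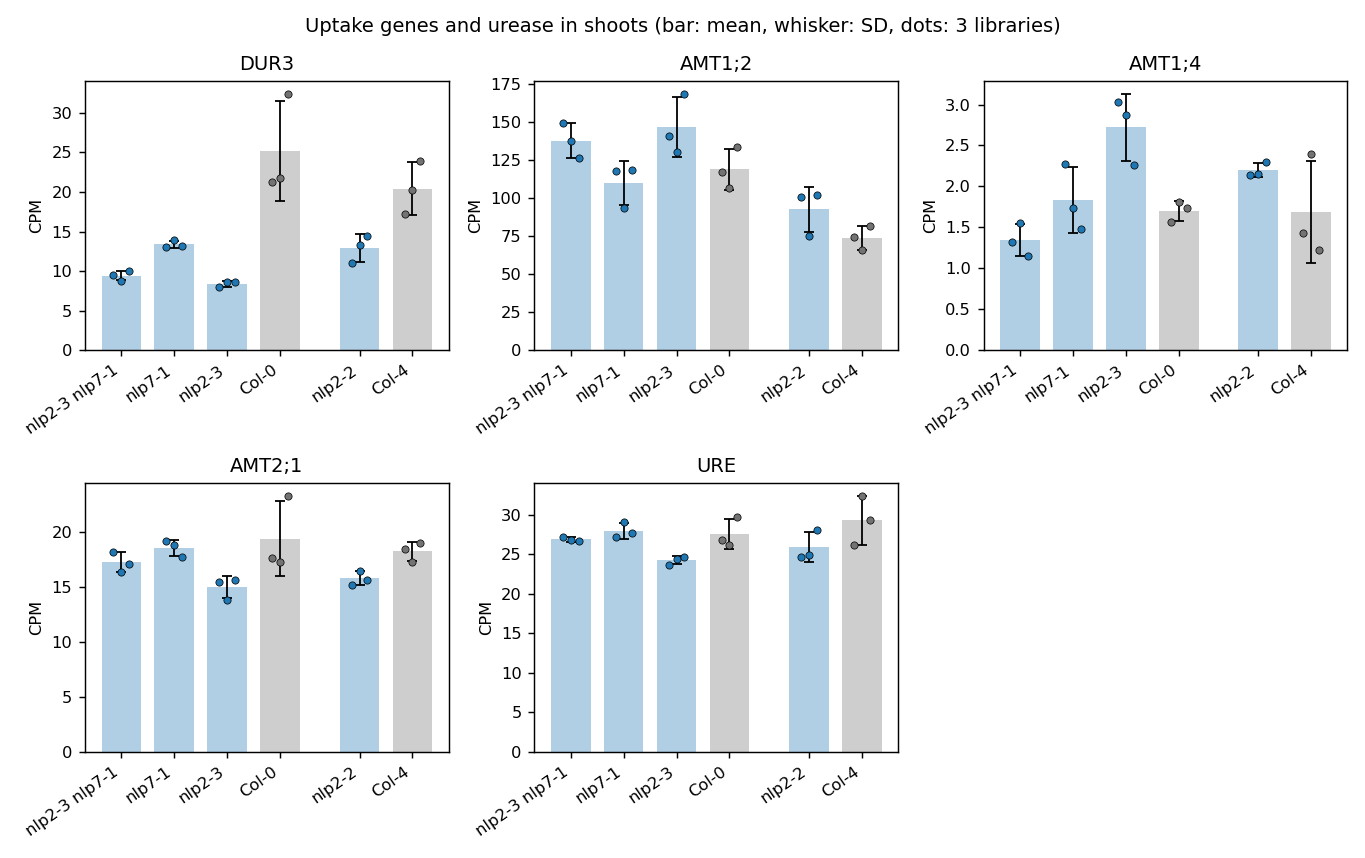
CPM in shoots of the 5 members that passed the filter on low counts, drawn as bars for the mean, whiskers for the SD and dots for the 3 libraries of each genotype, mutants in blue and wild types in grey. DUR3 of every mutant lies below its wild type, at 7.95 to 14.5 CPM against 17.2 to 32.4 CPM, and URE lies between 23.6 and 32.4 CPM in all 18 libraries.

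Among the ammonium carriers of the shoot, AMT2;1 in nlp2-3 was the 1 call against wild type. AMT2;1 had 15.5, 13.8 and 15.6 CPM in nlp2-3 shoots, against 17.6, 17.3 and 23.3 CPM in Col-0 shoots, and was called lower there (-0.37 ± 0.10, adjusted p = 0.0222). As for DUR3, the third Col-0 library was the highest, and without it the change was -0.22 (adjusted p = 0.268), the largest of its alternatives, which began at 0.00994. The call was also lost without nlp2-3 shoot replicate 2 (adjusted p = 0.136) and with only the groups compared fitted (0.0893). AMT1;2 had 149, 138 and 126 CPM in nlp2-3 nlp7-1 shoots and 141, 130 and 168 CPM in nlp2-3 shoots, against 117, 106 and 133 CPM in Col-0 shoots. Both overlapped with Col-0, and the changes were 0.21 ± 0.14 (adjusted p = 0.294) and 0.30 ± 0.14 (adjusted p = 0.312). In nlp7-1 its change was -0.11 ± 0.14 (adjusted p = 0.708), and in nlp2-2 it was 0.33 ± 0.15 (adjusted p = 0.36). Over its alternatives, which include Col-0 in place of Col-4, the nlp2-2 value ran from -0.36 to 0.45 and was never called. With the replicate number as a block the nlp2-3 value passed (0.30, adjusted p = 0.0462), in a comparison whose replicate numbers paired the libraries, and its adjusted p reached 0.643 elsewhere. AMT1;4 had 1.15 to 1.55 CPM in nlp2-3 nlp7-1 shoots, 1.48 to 2.27 CPM in nlp7-1 and 2.26 to 3.04 CPM in nlp2-3, against 1.57 to 1.80 CPM in Col-0, and 2.14 to 2.30 CPM in nlp2-2, against 1.22 to 2.40 CPM in Col-4. The nlp2-3 libraries lay above and the nlp2-3 nlp7-1 libraries below those of Col-0, and the other 2 mutants overlapped with their wild type. None of its changes from wild type was called, with 0.68 ± 0.25 in nlp2-3 (adjusted p = 0.131) and -0.34 ± 0.27 in nlp2-3 nlp7-1 (adjusted p = 0.365). URE was called in none of the 4 comparisons with wild type in shoots by edgeR, with 2 at an unadjusted p under 0.05 (-0.18 in nlp2-3 and in nlp2-2), and in none by DESeq2 or limma.

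Of the 5 members that passed the filter in shoots, 1 was called in nlp2-3 nlp7-1, 1 in nlp7-1, 2 in nlp2-3 and 1 in nlp2-2, all of them lower. Among all 19137 genes tested, 31.1% were called in nlp2-3 nlp7-1 (15.6% as lower), 9.77% in nlp7-1 (4.93% as lower), 5.8% in nlp2-3 (4.47% as lower) and 3.06% in nlp2-2 (2.33% as lower). The share of members called in nlp2-3 nlp7-1 shoots was thus near or below the background. The summed level of the 4 leaf markers in mutant shoots, 28971 to 34447 CPM, overlapped with that of wild-type shoots, 29998 to 36141 CPM. Of these markers LHCB2.1 and CA1 were called lower in nlp2-3 nlp7-1 shoots, by at most -0.25 on the log2 scale, and their part in the fall of DUR3 was not tested.

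**Figure D4:**
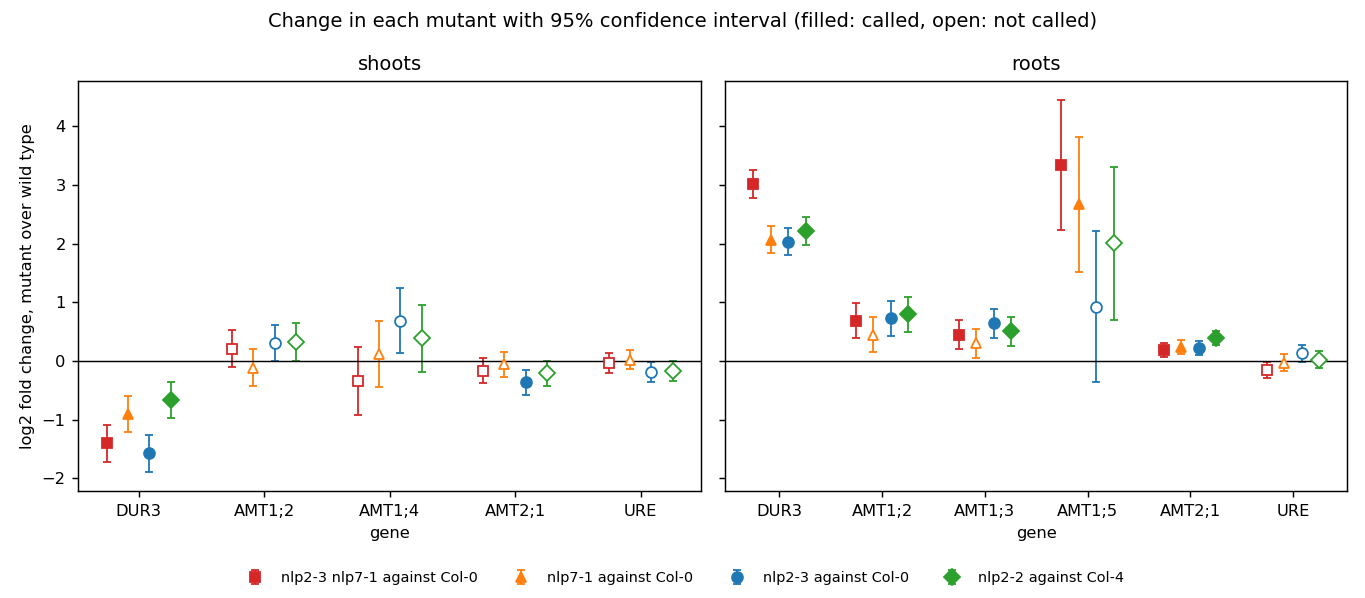
Log2 fold change of each member tested in shoots (left) and roots (right), with 95% confidence intervals, for nlp2-3 nlp7-1, nlp7-1 and nlp2-3 over Col-0 and nlp2-2 over Col-4, where filled symbols passed an adjusted p of 0.05. DUR3 lies between -1.58 and -0.67 in shoots and between 2.03 and 3.01 in roots, and the intervals of AMT1;5 are the widest.

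The shoot did not show the added effect of both mutations. DUR3 in nlp2-3 nlp7-1 shoots differed from nlp2-3 by 0.17 ± 0.16 (adjusted p = 0.458, 95% confidence interval -0.17 to 0.51). Against nlp7-1 it was lower by -0.50 ± 0.15 (adjusted p = 0.0376), a call that ended in each of the 6 fits without 1 library (adjusted p 0.0822 to 0.146) and in both limma fits. It was the 1 member called of the 5 tested against nlp7-1, with 7.99% of all genes called. Against nlp2-3 the 1 member called was AMT1;4 (-1.03 ± 0.26, adjusted p = 0.00417), which had 31, 36 and 28 counts in nlp2-3 nlp7-1 shoots and 76, 64 and 43 counts in nlp2-3 shoots, with no overlap, and 26.6% of all genes were called. The interaction of both mutations was called for DUR3 (1.07 ± 0.21, adjusted p = 0.00428) and for no other member, against 3.76% of all genes. On the linear scale the difference from Col-0 was -15.7 CPM in nlp2-3 nlp7-1, -11.8 CPM in nlp7-1 and -16.8 CPM in nlp2-3, so the double mutant fell no further than nlp2-3.

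AMT1;2 differed between the wild types in shoots, at 74.0, 65.8 and 81.6 CPM in Col-4 and 117, 106 and 133 CPM in Col-0, without overlap. The difference of -0.68 ± 0.14 missed the threshold (adjusted p = 0.0506). It was called by DESeq2 (adjusted p = 0.0007), both limma fits, the fit with the replicate number as a block (0.000426) and the fit of these groups alone (0.00752), and its adjusted p reached 0.239. Whether replicate numbers paired the libraries was not examined for Col-4 against Col-0. edgeR called 0 of the 5 members in that comparison, DESeq2 1 and limma 1, with 2 at an unadjusted p under 0.05. Of all 19137 genes 0.794% were called there, and 2368 had an unadjusted p under 0.05. The DUR3 decrease in nlp2-2 was smaller than in nlp2-3 by 0.91 ± 0.21, with an adjusted p of 0.0578 that ran from 0.00142 with the replicate number as a block to 0.303. Pairing was not examined for this difference either. edgeR called 0 of the 5 members for the nlp2-2 effect minus the nlp2-3 effect, DESeq2 1 and limma 0, with 1 at an unadjusted p under 0.05. Of all 19137 genes 0.345% were called there, and 1202 had an unadjusted p under 0.05.

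The opposite response of DUR3 in shoots and roots was tested in the fit of all 36 libraries. Its effect in shoots minus its effect in roots was -4.42 ± 0.20 in nlp2-3 nlp7-1 (adjusted p = 2.24e-16), -2.98 ± 0.19 in nlp7-1 (adjusted p = 4.16e-12), -3.63 ± 0.20 in nlp2-3 (adjusted p = 1.52e-13) and -2.89 ± 0.20 in nlp2-2 (adjusted p = 4.71e-11). All 19 alternatives of each kept the call. AMT2;1 differed between the tissues by -0.35 ± 0.11 in nlp2-3 nlp7-1 (adjusted p = 0.0194), -0.60 ± 0.11 in nlp2-3 (adjusted p = 0.000735) and -0.62 ± 0.11 in nlp2-2 (adjusted p = 0.00102), and in nlp7-1 the difference was -0.31 ± 0.11 (adjusted p = 0.0921). The nlp2-3 nlp7-1 call was lost without Col-0 shoot replicate 3 (-0.22, adjusted p = 0.111), Col-0 root replicate 2 (adjusted p = 0.052) or nlp2-3 nlp7-1 root replicate 1 (0.0509) and with only the groups compared in the fit (0.0886), with 0.00466 as the lowest of its alternatives. Of the 7 members tested, 2 were called in nlp2-3 nlp7-1, 1 in nlp7-1, 2 in nlp2-3 and 2 in nlp2-2, against 23.2%, 6.39%, 4.23% and 2.64% of all genes. For AMT1;3, AMT1;4 and AMT1;5, which are among the 7, such a difference could not be estimated, since 1 tissue is at or near 0. The counts thus rest on DUR3, AMT2;1, AMT1;2 and URE.

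Genes that handle the same nitrogen were counted from lists written from general knowledge. Among 8 tested genes of ammonium assimilation (glutamine and glutamate synthases), 3 rose and 4 fell in nlp2-3 nlp7-1 roots, 2 rose and 2 fell in nlp7-1 roots, 3 rose in nlp2-3 roots, and 4 rose and 1 fell in nlp2-2 roots. Of all genes tested in those roots 25.2%, 7.94%, 6.84% and 7.12% were called in either direction. GLN1;4, a cytosolic glutamine synthetase, stood at 131 ± 26 CPM in nlp2-3 nlp7-1 roots, 102 ± 3.5 CPM in nlp7-1 roots and 80.1 ± 2.0 CPM in nlp2-3 roots, against 30.7 ± 6.0 CPM in Col-0 roots. Its changes were 2.09 ± 0.15, 1.73 ± 0.14 and 1.38 ± 0.14, and in nlp2-2 1.38 ± 0.14 against Col-4 (adjusted p of 1.84e-05 and below in all 4). GLN1;1, another cytosolic form, rose by 0.48 to 0.56. GLN1;2 fell in nlp2-3 nlp7-1 (-0.60) and nlp7-1 (-0.59) and rose in nlp2-2 (0.47), and GLT1, the NADH-dependent glutamate synthase, fell in the first 2 (-0.64 and -0.59). These were not the widest falls of the list. Among all 8 tested genes, called or not, the lowest change was -1.12 in nlp2-3 nlp7-1 roots and -1.25 in nlp2-2 roots. In shoots 3 of the 8 rose and 2 fell in nlp2-3 nlp7-1, 1 rose in nlp7-1, 2 fell in nlp2-3, and 1 rose and 1 fell in nlp2-2, each change within 0.74 on the log2 scale, where 31.1%, 9.77%, 5.8% and 3.06% of all genes were called. GLN1;1, lower by -0.74 ± 0.10 in nlp2-3 shoots, was the widest of these.

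The other lists are read against the same shares of all genes, which in nlp2-3 nlp7-1, where most of their calls lie, were 25.2% in roots and 31.1% in shoots. At an unadjusted p under 0.05 stood 7328, 4377, 3961 and 3873 of the 20486 genes in nlp2-3 nlp7-1, nlp7-1, nlp2-3 and nlp2-2 roots. In shoots it was 7705, 4341, 3160 and 2517 of 19137 in that order. Of 7 tested genes that release urea or break down ureides in roots, 3 rose (ALN, AAH and UAH, each by 0.30 to 0.32) and 1 fell (TTL, -0.42) in nlp2-3 nlp7-1, 2 rose in nlp7-1 (ALN and UAH), 1 fell in nlp2-3 (TTL) and 0 were called in nlp2-2 by edgeR, with 3 at an unadjusted p under 0.05. In shoots 8 were tested and calls were limited to nlp2-3 nlp7-1, where ARGAH2, an arginase, rose (0.56) and ALN (-0.67) and AAH (-0.27) fell. At an unadjusted p under 0.05 there were 2 in nlp2-3 shoots and 0 in nlp7-1 and nlp2-2 shoots. The 3 proteins that load nickel into urease gave 1 call, UREG in nlp2-3 nlp7-1 shoots (0.40 ± 0.06, adjusted p = 2.94e-05), with no other at an unadjusted p under 0.05 in the 8 comparisons. Tonoplast aquaporins, some of which pass urea or ammonia, gave 1 call of 5 in roots, TIP1;1 lower in nlp2-3 nlp7-1 (-0.73), where 2 to 3 had an unadjusted p under 0.05 in each comparison. In shoots 2 of 4 rose in nlp2-3 nlp7-1 (TIP1;1 by 0.58 and TIP1;2 by 0.26) and 3 in nlp7-1 (these and TIP2;1), and 0 of 4 were called in nlp2-3 or nlp2-2, with 0 at an unadjusted p under 0.05. Of 4 kinases and calcium sensors tied to these carriers, CIPK23, a kinase that inhibits AMT1 proteins, fell in nlp2-3 nlp7-1 (-0.60), nlp7-1 (-0.26) and nlp2-3 (-0.25) shoots. CAP1 rose in nlp2-3 nlp7-1 (0.54) and nlp2-3 (0.67) shoots, and in nlp2-3 nlp7-1 roots CBL1 rose (0.81) and CIPK15 fell (-0.28). In nlp2-2 neither tissue had a call among these 4, with 1 in each at an unadjusted p under 0.05, and in nlp7-1 and nlp2-3 roots there were 0 calls and 1 each at that level.

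The genes with the most similar pattern were ranked by Pearson's r of log2 CPM over the 18 libraries of a tissue, among genes with a symbol. The libraries fall into groups by genotype, so r describes these libraries and carries no test. In roots DUR3 ran closest to UGT71C1 (r = 0.978), GLN1;4 (0.977) and GAMMA-VPE (0.969) of 8700 genes. In shoots DUR3 ran closest to RLP34 (0.981), VSR6 (0.975) and PAD4 (0.974) of 8375 genes. AMT1;2 in roots was most like UGT72E2 (0.966), AMT1;3 (0.945) and HOL1 (0.944). AMT1;3 was most like AMT1;2, GSTU27 (0.945) and AP2 (0.928), and AMT2;1 like CYP702A5 (0.935), AMT1;2 (0.903) and the gene AT2G37710, listed as RLK (0.895).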

How the data were processed

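The members and gene lists were chosen with earlier results of these data known. The authors deposited a table of raw counts per gene and a table of FPKM. Per the submitters' processing notes, HISAT2, HTSeq and the TAIR10 assembly were used, and versions, gene models, filters and strand setting are not given in the sources used here. The deposited FPKM values follow from the counts, the column sums and 1 length per gene. Names, strand and overlaps were read from the RefSeq table and annotation of TAIR10.1, in which 32548 of 32833 gene loci were found, and no sequence or coordinate is given because the builds differ by name, so the planned promoter search was not run.

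Every test used edgeR 4.0.16 in R 4.3.3: filterByExpr (minimum count 10, minimum total 15), TMM scaling and a robust quasi-likelihood fit with 1 mean per genotype in the 18 libraries of a tissue (12 residual degrees of freedom), or per genotype and tissue in all 36 (24). F tests were two-sided, p-values were adjusted by Benjamini-Hochberg over the whole table tested (20486 genes for roots, 19137 for shoots and 21554 for the joint fit), and a gene was called at an adjusted p under 0.05. CPM are counts per 1e+06 after TMM within a tissue. Intervals cover 95%, and floors of 3 counts cover counting error only. P-values measure the spread between these replicates, whose variance was 5.39 to 13.0 times that of counting.

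All members are named whether called or not. The calls of 1 endodermis marker are not reported here. At most 4 called genes are named per list and comparison, and they do not always include the widest change. Alternatives were DESeq2 1.42.0, its size factors, no filter on low counts, limma 3.58.1 on log2(FPKM + 1) and log2(FPKM + 0.1), only the groups compared, a replicate block, each library left out, and Col-0 in place of Col-4 for nlp2-2. Replicate numbers shared between groups were taken to pair libraries where every pair's deviations correlated above 0.1. This held for nlp2-2 and nlp2-3 against their wild type in both tissues. It also held for nlp7-1 against Col-0 in shoots and nlp2-3 nlp7-1 against nlp7-1 in roots (r from 0.148 to 0.617 in all). It did not hold for the other comparisons with Col-0 or of nlp2-3 nlp7-1 with a single mutant. Pairing was not examined separately for Col-4 against Col-0, the interaction, the allele difference or the shoot minus root effect. Block results of these comparisons rest on pairing that was not found or not examined.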

Additional observations from a re-analysis of the deposited data

Results flagged for a closer look

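The effect of the mutations on DUR3 differed between shoots and roots by a test of the difference itself, at -4.42 in nlp2-3 nlp7-1, -2.98 in nlp7-1, -3.63 in nlp2-3 and -2.89 in nlp2-2 on the log2 scale, shoot minus root. For AMT2;1 the same difference was -0.35 in nlp2-3 nlp7-1, -0.60 in nlp2-3 and -0.62 in nlp2-2. On the log2 scale the effect of one mutation on DUR3 differed with the other present, with an interaction of -1.09 in roots and 1.07 in shoots. In roots this depends on the scale: in CPM nlp2-3 nlp7-1 exceeded Col-0 by 149, and the single differences sum to 133. No cause of these differences was tested.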

How the results depend on the processing

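Over all comparisons, 1967 of 2049 values of single members kept their side of the threshold under another setting, 39 lost and 41 gained a call. Sign changes in which neither setting called the gene are counted among these 1967, as for AMT1;2 in nlp2-2 shoots (0.33, lowest alternative -0.36). Another 2 values turned in sign with a call in 1 of the settings compared. Those 2 are AMT1;3 in the shoot minus root effect with limma on log2(FPKM + 1), at -0.60 in nlp2-3 (0.41 with edgeR) and -0.41 in nlp2-3 nlp7-1 (0.75 with edgeR), where shoots hold next to no counts. The number of members called stayed within 1.5 times its value in 312 of 349 cases. With limma on log2(FPKM + 1) it was 4 for the shoot minus root effect of nlp2-3 nlp7-1 and of nlp2-3 (2 with edgeR), 2 for that of nlp7-1 (1), 4 for Col-0 shoots against roots (7), 0 for nlp2-3 nlp7-1 against nlp7-1 shoots (1) and 1 for Col-4 against Col-0 shoots (0). Adding 0.1 in place of 1 gave the same in the last 2 and in nlp7-1. DESeq2 gave 2 for the nlp7-1 shoot minus root effect, 1 for Col-4 against Col-0 shoots and 1 for the nlp2-2 minus nlp2-3 effect in shoots (0 with edgeR), which was also 1 without a filter on low counts. The replicate block gave 2, 1 and 1 in those 3 comparisons and 2 for nlp2-3 nlp7-1 against nlp7-1 shoots, and its AMT1;2 change in nlp7-1 roots had an adjusted p of 0.00181. Fitting only the groups compared gave 1 for nlp2-3 shoots (2 in the whole fit) and 1 for Col-4 against Col-0 shoots. Leaving out 1 library gave 0 to 1 in nlp2-2 shoots, 1 to 2 in nlp2-3 shoots, 0 in each case for nlp2-3 nlp7-1 against nlp7-1 shoots, 0 to 1 for the nlp2-2 minus nlp2-3 effect in shoots, and 1 to 2 for the shoot minus root effect in nlp7-1 and in nlp2-3 nlp7-1. The number of all genes called moved by over 1.5 times in 50 of 349 cases. For Col-4 against Col-0 it was 8 in roots (18 with the block, 20 with DESeq2) and 152 in shoots (622 and 332). For the interaction it was 49 in roots (77 and 149) and 719 in shoots (1233 with the block). For nlp2-2 minus nlp2-3 it was 13 in roots (24 with DESeq2) and 66 in shoots (153 with the block, 148 with DESeq2, 42 with limma on log2(FPKM + 1), 43 with only the groups compared). With only the groups compared it was 659 for nlp2-3 roots (1401 in the whole fit) and 694 for nlp2-3 nlp7-1 against nlp2-3 roots (1326), against Col-0 it was 1360 for nlp2-2 shoots (586 against Col-4), and for the nlp2-2 shoot minus root effect it was 569 (1046 with limma on log2(FPKM + 1), 899 with DESeq2). Without 1 library it reached 846 for nlp2-2 roots (1458 with all, nlp2-2 replicate 2 left out), 338 for nlp2-2 shoots (586, Col-4 replicate 3), 855 for nlp2-3 roots (1401, nlp2-3 replicate 1), 1010 for nlp7-1 roots (1627, nlp7-1 replicate 3) and 955 for nlp7-1 shoots (1870, Col-0 replicate 3). For nlp2-3 nlp7-1 it reached 824 against nlp7-1 roots (1334, nlp7-1 replicate 2), 921 against nlp7-1 shoots (1530, nlp7-1 replicate 1) and 870 against nlp2-3 roots (1326, nlp2-3 replicate 3). It reached 802 for the nlp7-1 shoot minus root effect (Col-0 root replicate 2), 50 for Col-4 against Col-0 shoots (Col-0 replicate 3), 18 for the same in roots (Col-0 replicate 1), 23 for the root interaction (nlp2-3 replicate 3), and 35 and 104 for the nlp2-2 minus nlp2-3 effect in shoots (Col-4 replicates 1 and 3). The cause of these shifts was not tested, and 3 libraries per group and low counts of AMT1;4 and AMT1;5 limit what could be called.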

Other observations

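AMT1;1 was not alone in its low counts. Of 872 protein-coding loci with at least 80% of their span overlapped by another annotated gene, 711 (81.5%) had at most 3 counts in every library. Of 19672 protein-coding loci with no overlap, 3509 (17.8%) had at most 3 counts in every library. The cause was not tested.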
